A study of Saccharomyces cerevisiae with 18 samples.

Results

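A pair of strains of the haploid laboratory yeast BY4741 (Saccharomyces cerevisiae, mating type a) were compared: one titled CLIB215RXT3, whose RXT3 gene had been exchanged for the allele of CLIB215, a natural isolate of the species, and one titled CLIB215PHO23, whose PHO23 gene had been exchanged for the CLIB215 allele. Both are labelled as BY4741 otherwise, so the comparison sets an allele from 1 donor strain at one locus against an allele of the same donor at the other. Both cultures started at an OD of 0.1 in rich YP medium with xylulose, a pentose sugar, and were harvested in log phase. The series has 18 libraries in 6 groups, and each group of 3 libraries is held as 1 pooled column of centred log values. All 4956 open reading frames (ORFs) with a value in all 6 columns, of 6650 named ORFs, entered the comparison. The other columns are titled as RXT3 deleted, RXT3 with the allele of the wine strain T73, PHO23 deleted and PHO23 with the T73 allele. No column for unmodified BY4741 was used here, and whether a strain is 1 clone is not given in the sources used here.

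Rxt3 and Pho23 are subunits of Rpd3L, the large histone deacetylase complex built around Rpd3 and Sin3. Rpd3L removes acetyl groups from histone tails at promoters to which DNA-binding proteins such as Ume6 and Ash1 bring it, and it is known both as a repressor and as a factor that some stress genes need for full induction. In yeast it is also recruited to genes of ribosome assembly by proteins that bind the PAC and RRPE promoter elements. Pho23 carries a PHD finger that binds methylated histone H3, and PHO23 was first found through PHO5, the gene of a secreted acid phosphatase.

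Each value is a log ratio, read here as log2, to a centre of that ORF, and a difference is the value in the CLIB215RXT3 column minus the value in the CLIB215PHO23 column. With 1 pooled column per group there is no replicate error, so no difference has a replicate check and no test was made. A difference of at least 1 unit, which is 2-fold if the base is 2, was counted as a description. The libraries are bulk cultures, in which a change in the share of cells that use a gene and a change in RNA per cell cannot be told apart. The genotype field of the CLIB215RXT3 samples names the T73 allele of RXT3, and that of 2 other groups also differs from their titles; the CLIB215PHO23 samples carry matching labels. The titles were used. PHO23 itself had no value in the column titled as its deletion and values in the other 5. RXT3 had a value in all 6 columns and goes against the title of its own deletion: it was at −0.05 in that column, 0.23 in CLIB215RXT3 and 0.11 with the T73 allele of RXT3, against −0.15 in the column titled as the PHO23 deletion, −0.36 in CLIB215PHO23 and 0.14 with the T73 allele of PHO23. Both namings call that column the RXT3 deletion, and which part of the gene was removed is not given in the sources used here, so the 2 deletion columns are named by their titles throughout. By the genotype field the CLIB215 allele of RXT3 would be in the column titled as the PHO23 deletion, and then 97 ORFs would be higher and 62 lower, with HSP12 at −0.25, OPI3 at 0.09 and small-subunit assembly at a median of 0.10, so the signs of these rest on the titles. The lack of a PHO23 value in that column goes with its title. Of the genes that mark the BY4741 background, LEU2 and MET17, both absent from it, had no value in any column. URA3 had a value in the column of the T73 allele of PHO23 and in no other. HIS3 had a value in all 6 columns, and how much of it BY4741 keeps is not given in the sources used here. All 7 genes specific to mating type a had a value in every column, whereas none of the 4 alpha-specific genes did. Of these 4, SAG1 had a value in 5 columns, STE3 in 2, and MF(ALPHA)1 and MF(ALPHA)2 in 1 each.

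Cells with the CLIB215 allele at RXT3 had higher values than cells with the CLIB215 allele at PHO23 for stress genes led by HSP12, for the enzymes of gluconeogenesis and the glyoxylate cycle, and for several genes of the cell wall and of iron retention. They had lower values for the factors that assemble ribosomes, for tRNA-modifying enzymes, and for most of 19 listed Ume6 targets, largely outside meiosis. The 17 listed meiotic genes with complete values did not share the lower median (0.09, with 11 above 0). Of these 17, however, 3 were lower by at least 1 unit (17.6%). Of the 4956 ORFs, 219 were higher by at least 1 unit (4.42%) and 225 were lower (4.54%), and the median difference was 0.03. Above 0 stood 52.5% of all ORFs and below it 47.5%, shares against which the counts of the gene lists can be read. The central 95% of the differences ran from −1.18 to 1.19, with an SD of 0.597 over ORFs. Among the 15 possible pairs of columns, whose SDs ran from 0.391 to 0.607, only 1 pair was wider. This width was not particular to a contrast between loci. Within PHO23, the T73 allele against CLIB215PHO23 had an SD of 0.590, with 436 ORFs past 1 unit. Between loci, CLIB215RXT3 against the T73 allele of PHO23 had an SD of 0.406, with 101 ORFs past 1 unit. Values just inside the limit were 1.0027 and −1.0006, and values just outside it were 0.9993 and −0.9992.

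The CLIB215PHO23 column was the wider of the pair. Its values had an SD of 0.422 over ORFs, against 0.282 in the CLIB215RXT3 column. Among the 219 higher ORFs, 21 had a CLIB215RXT3 value above the range of the 4 columns outside this pair and a CLIB215PHO23 value not below it. For 104 only CLIB215PHO23 passed the range, on its lower side, while 75 had both and 19 had neither. Among the 225 lower ORFs, only CLIB215RXT3 passed the range, on its lower side, for 42. Only CLIB215PHO23 passed it, on its upper side, for 70, with both for 86 and neither for 27. Over all 4956 ORFs, where a value on either side of the range was counted, it was CLIB215RXT3 alone for 824, CLIB215PHO23 alone for 1328, both for 983 and neither for 1821. These counts are thus not the same measure. The higher and lower ORFs were also picked for a wide gap between these columns, which makes values beyond the range more likely.

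**Figure D1:**
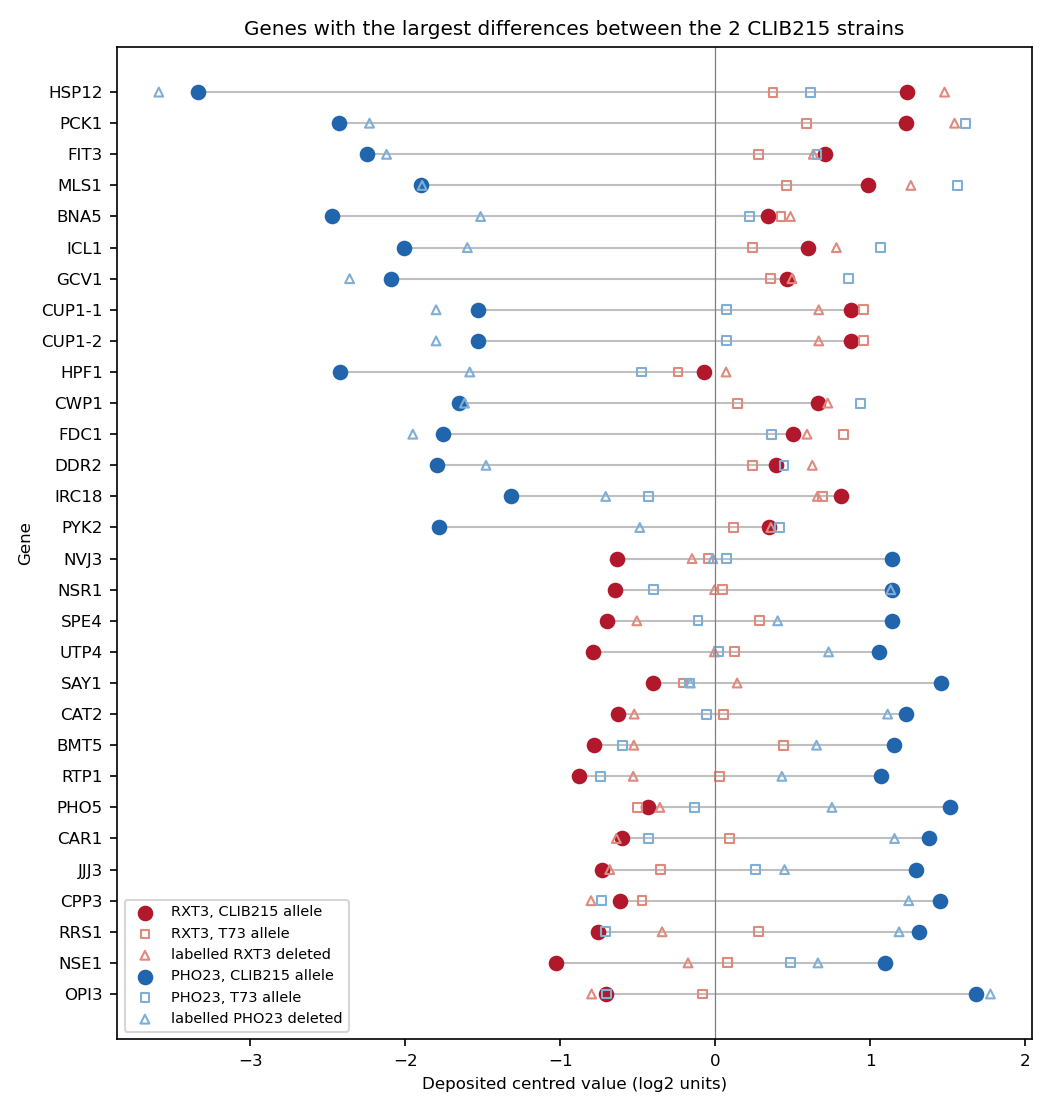
Deposited centred values (log2 units, horizontal axis) of the 15 annotated genes with the largest positive and the 15 with the largest negative differences, 1 row per gene. Filled circles are the CLIB215 columns, joined by a line, and open squares and triangles are the T73 and the labelled deletion columns (red for RXT3, blue for PHO23); for HSP12, PCK1 and OPI3 the blue triangle lies near the blue circle, away from the other 4 columns.

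HSP12, which codes for a small membrane-binding stress protein, had the largest positive difference (YFL014W, chromosome VI, 107256 to 107585, plus strand, build R64). Its value was 1.24 in the CLIB215RXT3 column, against −3.34 in the CLIB215PHO23 column, a difference of 4.58. In the other columns it was 1.48 in the column titled as the RXT3 deletion and 0.37 with the T73 allele of RXT3, against −3.59 in the one titled as the PHO23 deletion and 0.61 with the T73 allele of PHO23. The CLIB215PHO23 column and the column titled as the PHO23 deletion thus stood far below the other 4. The promoter of HSP12 is shown because it carries the elements typical of stress genes, from 250 bases before to 50 bases after the start codon's first base (build R64, chrVI:107006-107305, plus strand). Capitals mark the stress response element STRE, AGGGG on either strand, and the TATA element TATAAA.

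HSP12: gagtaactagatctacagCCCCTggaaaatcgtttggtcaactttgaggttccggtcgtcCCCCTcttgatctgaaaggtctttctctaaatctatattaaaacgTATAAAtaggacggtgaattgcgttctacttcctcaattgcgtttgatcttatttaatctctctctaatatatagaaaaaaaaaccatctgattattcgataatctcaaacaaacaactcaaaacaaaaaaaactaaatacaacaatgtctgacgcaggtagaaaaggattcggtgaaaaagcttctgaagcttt

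Of 45 genes that answer to the stress factors Msn2 and Msn4, 32 were above 0, 9 were higher by at least 1 unit and 2 were lower, with a median of 0.31. DDR2, a small stress-induced gene, was at 0.39 in CLIB215RXT3 cells and −1.80 in CLIB215PHO23 cells, a difference of 2.19. GPX1, a glutathione peroxidase gene, differed by 1.78, HSP31, a chaperone and glyoxalase gene, by 1.73, and SSA4, a heat-inducible Hsp70 gene, by 1.62. The exceptions past 1 unit were MOH1 at −1.44 and SIP18, a desiccation-stress gene, at −1.12, and the disaggregase gene HSP104 was at −0.04. The STRE letters occur in 29 of the 45 promoters of this list (64.4%), against 28.7% of the promoters of the higher ORFs, 19.9% of the lower ORFs and 22.3% of all 4858 ORFs with a promoter in the annotation. The TATAAA letters occur in 49.1% of promoters of higher ORFs, 34.4% of lower ORFs and 43.5% of all. The chaperone genes of the heat-shock factor Hsf1 were split, 10 of 21 above 0 (median −0.04), and SSA4 was the only one of them past 1 unit.

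Storage carbohydrates, which accumulate in the same states as stress proteins, had a similar median. Of 20 trehalose and glycogen genes, 16 were above 0 and 4 were higher by at least 1 unit (median 0.37). PIG2, the gene of a phosphatase subunit that targets glycogen synthase, differed by 2.00, the trehalose synthase gene TPS1 by 1.12, the glycogenin gene GLG1 by 1.08 and the trehalase gene NTH2 by 1.01. The phosphoglucomutase gene PGM1 had the opposite sign, with −0.84 in CLIB215RXT3 cells and 0.82 in CLIB215PHO23 cells, a difference of −1.66.

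Gluconeogenesis makes hexose from smaller carbon compounds, and the glyoxylate cycle feeds it from acetate; glucose represses the genes of both. Of 12 such genes with complete values, 9 were above 0 and 6 were higher by at least 1 unit, with a median of 1.03. PCK1, for phosphoenolpyruvate carboxykinase (YKR097W, chromosome XI, 631152 to 632801, plus strand), was at 1.23 in CLIB215RXT3 cells and −2.43 in CLIB215PHO23 cells, a difference of 3.66. The malate synthase gene MLS1 was at 0.99 and the isocitrate lyase gene ICL1 at 0.60 in CLIB215RXT3 cells, against −1.90 for MLS1 and −2.01 for ICL1 in CLIB215PHO23 cells. Both are enzymes particular to the glyoxylate cycle, and their differences were 2.89 and 2.61. FBP1, the fructose bisphosphatase gene, differed by 1.80, the lactate permease gene JEN1 by 1.25 and the cytosolic isocitrate dehydrogenase gene IDP2 by 1.08. RDS2, a regulator of this pathway, was at −0.57, and the malate dehydrogenase gene MDH2 was at −0.34.

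The mitochondrial genes that burn the same carbon differed by less. Of 38 genes of the respiratory chain and ATP synthase, 34 were above 0, but 2 were higher by at least 1 unit and 1 was lower (median 0.38). The 2 were COX9, a cytochrome oxidase subunit gene at 1.34, and INH1, an inhibitor of ATP synthase at 1.02, and the 1 was NDE2, an external NADH dehydrogenase gene at −1.49. Of 17 genes of the TCA cycle, 14 were above 0 and none was past 1 unit (median 0.28), and of 76 mitochondrial ribosomal protein genes, 51 were above 0 (median 0.24). In the transfer of acetyl units, which supplies both the TCA and glyoxylate cycles, the larger differences were negative: the carnitine acetyltransferase gene CAT2 was at −1.86, the acetyl-CoA synthetase gene ACS1 at −1.68 and the aldehyde dehydrogenase gene ALD5 at −1.17. The median of those 13 genes was −0.14.

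Genes that handle the medium's own sugar stood near the middle. Of 18 genes of xylulose use and the pentose phosphate pathway, 12 were below 0 and the median was −0.12. The xylulokinase gene XKS1, which admits xylulose into the pathway, differed by −0.43, the transketolase gene TKL1 by −0.75 and the transaldolase gene TAL1 by −0.13. The minor copies in the pathway had the opposite sign: NQM1, a paralog of TAL1, differed by 1.27 and GND2, the minor phosphogluconate dehydrogenase gene, by 1.07, while the major gene GND1 was at −0.59. PYK2, the minor pyruvate kinase gene, was at 0.35 in CLIB215RXT3 cells and −1.78 in CLIB215PHO23 cells, a difference of 2.13. Of 7 hexose transporter and sensor genes with complete values, 5 were above 0; HXT3, a low-affinity transporter gene, differed by 1.34 and the sensor gene SNF3 by −0.96. Transporters of this family share long stretches of sequence, and how the authors assigned shared reads is not given in the sources used here.

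**Figure D2:**
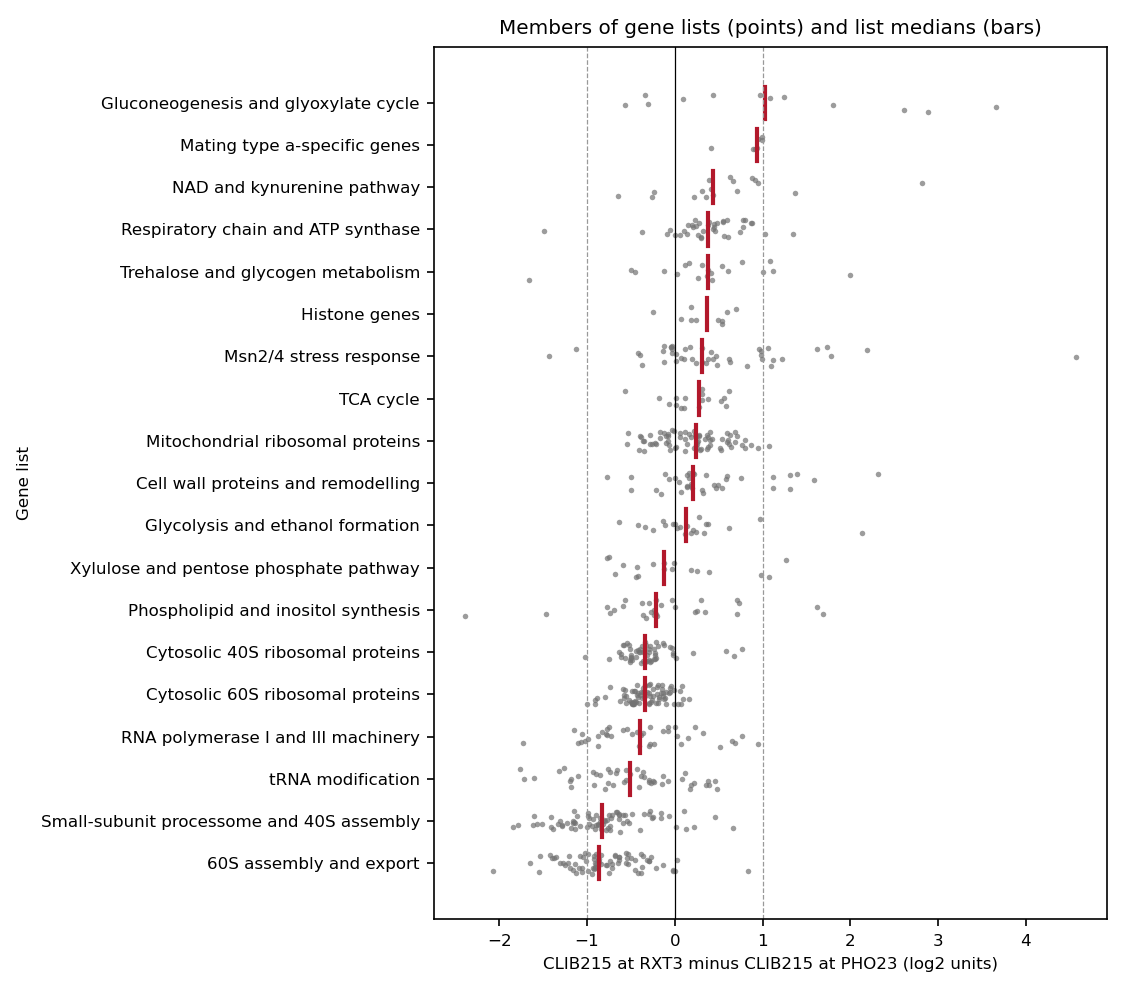
Differences between CLIB215RXT3 and CLIB215PHO23 (log2 units, horizontal axis) for the complete members of 19 gene lists, 1 row per list. Each grey point is a gene, red bars are list medians and dashed lines mark 1 unit in each direction; the list medians run from −0.86 for 60S assembly to 1.03 for gluconeogenesis.

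The lower side was led by ribosome assembly, the process in which a large set of nucleolar factors folds, cuts and exports both ribosomal subunits. Of 76 genes of the small-subunit processome and 40S assembly, 70 were below 0 and 24 were lower by at least 1 unit (median −0.83). Of 77 genes of 60S assembly and export, 74 were below 0 and 24 were lower by at least 1 unit (median −0.86). Together these lists hold 48 of the 225 lower ORFs and none of the higher ones. Small-subunit members had medians of −0.26 in the CLIB215RXT3 column and 0.55 in the CLIB215PHO23 column, and 60S members had medians of −0.23 in CLIB215RXT3 and 0.57 in CLIB215PHO23.

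RRS1 (YOR294W, chromosome XV, 868340 to 868951), a gene needed for 60S assembly and for bringing 5S RNA into the particle, was at −0.76 in CLIB215RXT3 cells and 1.32 in CLIB215PHO23 cells, a difference of −2.07. UTP4 (YDR324C, chromosome IV, 1114433 to 1116763), a component of the small-subunit processome, was at −0.79 in CLIB215RXT3 and 1.06 in CLIB215PHO23, a difference of −1.85. NSR1 (YGR159C, chromosome VII, 806412 to 807656), the yeast nucleolin gene, was at −0.65 in CLIB215RXT3 and 1.14 in CLIB215PHO23, a difference of −1.79. In all 3, CLIB215RXT3 was the lowest and CLIB215PHO23 the highest of the 6 columns. The rRNA methyltransferase gene BMT5 differed by −1.94, the 60S factor gene NSA2 by −1.65, and the 40S factor genes KRR1 and ENP2 by −1.62 and −1.60. The promoters of RRS1, UTP4 and NSR1 are shown because their windows hold elements that lower ORFs hold more often than all ORFs do. The PAC match of UTP4 begins 5 bases after the first base of the start codon, inside the coding sequence. Capitals mark PAC, GATGAG, and RRPE, AAATTTT, on either strand, from 250 bases before to 50 bases after the start (build R64; RRS1 chrXV:868090-868389, plus strand; UTP4 chrIV:1116714-1117013, minus strand; NSR1 chrVII:807607-807906, minus strand).

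RRS1: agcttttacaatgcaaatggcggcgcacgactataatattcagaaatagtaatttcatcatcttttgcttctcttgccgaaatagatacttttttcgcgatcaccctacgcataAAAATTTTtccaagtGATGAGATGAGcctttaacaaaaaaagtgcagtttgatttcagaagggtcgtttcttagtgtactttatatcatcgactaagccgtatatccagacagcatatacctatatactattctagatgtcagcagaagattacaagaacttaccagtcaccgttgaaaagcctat

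UTP4: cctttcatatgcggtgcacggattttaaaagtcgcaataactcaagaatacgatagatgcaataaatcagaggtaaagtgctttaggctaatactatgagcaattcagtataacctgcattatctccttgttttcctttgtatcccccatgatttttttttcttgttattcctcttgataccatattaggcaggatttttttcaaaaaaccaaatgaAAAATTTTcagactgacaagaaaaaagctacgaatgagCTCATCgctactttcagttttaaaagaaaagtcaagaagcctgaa

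NSR1: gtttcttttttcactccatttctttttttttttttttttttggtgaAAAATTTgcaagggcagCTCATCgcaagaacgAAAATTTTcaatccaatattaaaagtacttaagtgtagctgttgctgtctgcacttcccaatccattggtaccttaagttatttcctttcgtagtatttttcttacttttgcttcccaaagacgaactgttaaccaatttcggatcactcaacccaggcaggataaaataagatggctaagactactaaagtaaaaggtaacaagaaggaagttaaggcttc

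The PAC letters occur in 10.2% of the 216 promoters of higher ORFs, 52.0% of the 221 promoters of lower ORFs and 974 of all 4858 promoters. The RRPE letters occur in 15.3% of promoters of higher ORFs, 43.9% of lower ORFs and 24.7% of all. In the assembly lists themselves they are nearly universal, with PAC in 69 of 76 small-subunit promoters (90.8%) and 71 of 77 promoters of 60S assembly (92.2%). Matches of PAC and RRPE share no base with each other, while matches of the other motifs counted here can share bases with them or among themselves, and each motif was counted on its own. Sorted by these letters alone, the 424 ORFs with both had a median difference of −0.41, the 550 with PAC alone −0.09, the 775 with RRPE alone 0.01 and the 3109 with neither 0.10. Among the 290 ORFs with both that are in neither assembly list, the median was −0.21 and 10.7% were lower by at least 1 unit, against 4.54% of all ORFs. The assembly lists are not complete, and BMT5 is in neither. Related lists were not taken out: PAC is in 28 of 47 promoters of tRNA modification genes (59.6%). It is in 23 of 40 promoters of genes of RNA polymerases I and III (57.5%). These matches describe the letters in the window and say nothing of binding.

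**Figure D3:**
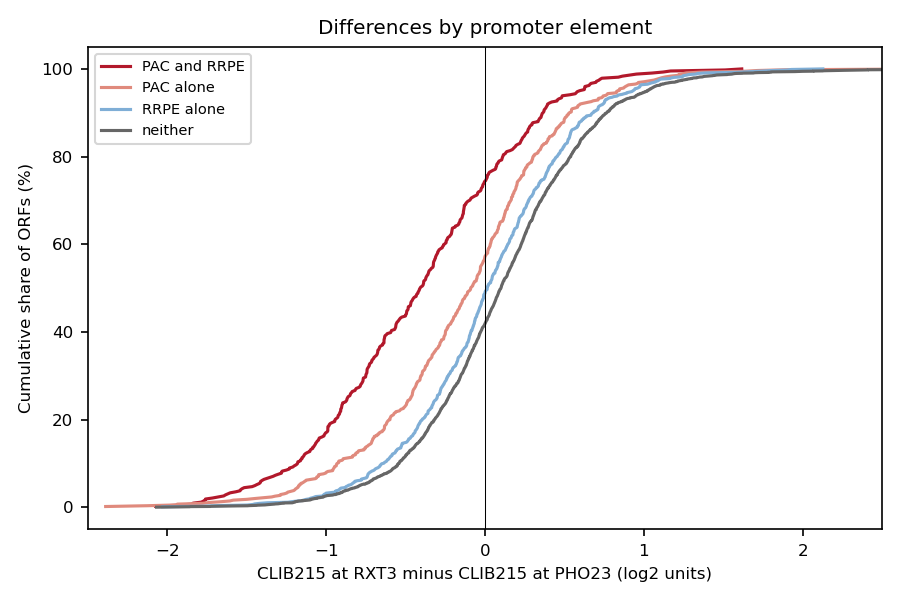
Cumulative share of ORFs (%, vertical axis) by difference between CLIB215RXT3 and CLIB215PHO23 (log2 units, horizontal axis, drawn from −2.5 to 2.5), for 4858 ORFs split by the PAC and RRPE letters in their promoters. The line of the 424 ORFs with both elements lies left of the other 3, with 17.0% of its ORFs lower by at least 1 unit, against 2.61% of the ORFs with neither.

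The products of the assembly line, the ribosomal proteins, had smaller differences of the same sign. Of 138 cytosolic ribosomal protein genes, 127 were below 0, with a median of −0.34, and 1 was lower by at least 1 unit, RPS17B at −1.02. The PAC letters are in 8 of 81 promoters of 60S proteins and 7 of 57 of 40S proteins. Many of these genes come as near-identical pairs, so that reads may be split between copies. Of 47 tRNA modification genes, 37 were below 0 and 9 were lower by at least 1 unit (median −0.51), among them TRM82, of the tRNA guanine methyltransferase, at −1.76 and SUA5, of threonylcarbamoyl-adenosine synthesis, at −1.72. Of 40 genes of RNA polymerases I and III and their factors, 29 were below 0 and 6 were lower by at least 1 unit (median −0.40), led by the polymerase III subunit gene RPC17 at −1.72. Of 20 genes of the growth signals Ras and protein kinase A, 14 were above 0; RAS1 was at −1.77 and its paralog RAS2 at −0.12.

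OPI3 (YJR073C, chromosome X, 572315 to 572935), the gene of the methyltransferase that finishes phosphatidylcholine, had the largest negative difference among annotated genes. It was at −0.70 in CLIB215RXT3 cells and 1.69 in CLIB215PHO23 cells, a difference of −2.39. In the other columns it was at −0.80 in the column titled as the RXT3 deletion and −0.08 with the T73 allele of RXT3, against 1.78 in the one titled as the PHO23 deletion and −0.70 with the T73 allele of PHO23. Again the CLIB215PHO23 column and the titled PHO23 deletion stood apart, here above the other 4. Its promoter is shown because OPI3 is a classic target of the inositol-choline element, whose core CATGTG is in capitals on either strand (build R64, chrX:572886-573185, minus strand); the core occurs in 6.48% of promoters of higher ORFs, 7.69% of lower ORFs and 6.32% of all.

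OPI3: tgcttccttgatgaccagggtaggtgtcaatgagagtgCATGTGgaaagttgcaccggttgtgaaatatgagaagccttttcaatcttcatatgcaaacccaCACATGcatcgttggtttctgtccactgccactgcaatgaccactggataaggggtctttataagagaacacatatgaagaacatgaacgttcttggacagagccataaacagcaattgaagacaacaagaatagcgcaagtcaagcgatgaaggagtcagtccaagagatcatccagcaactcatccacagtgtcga

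The rest of phospholipid synthesis did not follow OPI3 as a block. Of 29 genes, 19 were below 0, 2 were lower by at least 1 unit and 2 were higher, with a median of −0.22. CHO2, which acts just before OPI3, was at −0.56, and URA7, a CTP synthase gene, at −1.47. PGS1, the first enzyme of cardiolipin synthesis, was at 1.69.

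OPI3 is also among 19 genes, most of them outside meiosis, known as targets of Ume6, which brings Rpd3L to the URS1 element. Of these, 14 were below 0 and 4 were lower by at least 1 unit, with a median of −0.41. CAR1, the arginase gene, was at −0.60 in CLIB215RXT3 cells and 1.38 in CLIB215PHO23 cells, a difference of −1.98. ACS1 and the meiotic recombinase gene DMC1, at −1.68 and −1.08, were the others past the limit, and FBP1 had the opposite sign. The URS1 core GGCGGC occurs in 4.63% of promoters of higher ORFs, 8.60% of lower ORFs and 4.34% of all. It occurs in 4 of the 19 promoters of this list and in 5 of the 17 of the meiotic list. Most meiotic genes have no complete values in these growing haploid cells: of 59 listed, 17 had them, of which 11 were above 0. By at least 1 unit, 1 of the 17 was higher and 3 were lower (17.6%, against 4.54% of all ORFs). The 3 include DMC1 and ZIP1, a synaptonemal complex gene, at −1.42.

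Of 10 subunit genes of Rpd3L with complete values, 5 were above 0. UME6 itself had the one difference past 1 unit, with −0.57 in CLIB215RXT3 cells and 0.45 in CLIB215PHO23 cells, a difference of −1.02. ASH1 was at 0.87 and the catalytic subunit gene RPD3 at 0.47, while the scaffold gene SIN3 was at −0.01 and RXT2 at −0.02. RXT3 was at 0.23 in cells with its CLIB215 allele and −0.36 in CLIB215PHO23 cells, a difference of 0.60. PHO23 was at −0.61 in CLIB215RXT3 cells and −0.88 in cells with its CLIB215 allele, which are its lowest values; it has no complete set of values and no part in the counts. Of 10 histone genes, 9 were above 0 and none was past 1 unit (median 0.37). PHO5, through which PHO23 was found, was at −0.43 in CLIB215RXT3 cells and 1.52 in CLIB215PHO23 cells, a difference of −1.95, while the remaining 17 complete genes of the phosphate regulon lay between −0.85 for PHO8 and 1.11 for PHO2.

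Cell-surface and metabolic genes filled out the higher side. Of 37 cell wall genes, 30 were above 0 and 7 were higher by at least 1 unit. They were the mannoprotein gene CWP1 at 2.31, TIP1 at 1.31, and DSE1, CTS1, EGT2, DSE2 and SCW11, which are genes of daughter-cell separation, at 1.59, 1.39, 1.31, 1.12 and 1.12. In the iron regulon the cell-wall mannoprotein genes FIT3 and FIT2 differed by 2.95 and 1.56, whereas the iron permease gene FTR1 was at 0.88 and the haem oxygenase gene HMX1 at −0.87 (23 genes, median 0.27). In the kynurenine pathway to NAD, the kynureninase gene BNA5 differed by 2.81 and the dioxygenase gene BNA1 by 1.37 (17 genes, 14 above 0, median 0.43). GCV1 and GCV2 of the mitochondrial glycine cleavage complex differed by 2.56 and 1.95, and the cytosolic serine hydroxymethyltransferase gene SHM2 by 1.10, although the median of 21 one-carbon genes was −0.06. The metallothionein genes CUP1-1 and CUP1-2, which are tandem copies with identical values, differed by 2.41 each.

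Other pathways held single large differences. In sulfur assimilation the sulfite reductase gene MET5 was at 1.79, with 0.59 in CLIB215RXT3 and −1.20 in CLIB215PHO23, while the S-adenosylmethionine synthetase gene SAM2 was at −1.73 (25 genes, 14 above 0, median 0.28). In peroxisomal fatty acid oxidation the acyl-CoA oxidase gene POX1 differed by 1.90 and the dienoyl-CoA reductase gene SPS19 by 1.98, against −1.03 for the fatty acid transporter gene PXA1 (25 genes, median −0.09). Of 63 genes of amino acid synthesis, 45 were below 0 (median −0.19), and the 3 lower by at least 1 unit were ARG1, of arginine synthesis, at −1.61, HIS4, of histidine synthesis, at −1.14 and LYS20, of lysine synthesis, at −1.13. In purine and pyrimidine synthesis ADE2, of the purine pathway, was at 1.46 and URA1, the dihydroorotate dehydrogenase gene, at −1.45 (25 genes, median −0.16). Of 37 proteasome genes 25 were above 0 and of 30 cell cycle genes 16 were, with medians of 0.17 and 0.0072, and of 29 ergosterol genes 14 were above 0 (median −0.09).

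The genes that mark mating type a differed as a group and within a narrow range. MFA1, which codes for the a-factor pheromone, was at 0.40 in CLIB215RXT3 cells and −0.60 in CLIB215PHO23 cells, and its difference of 0.9975 just missed 1 unit. All 7 were above 0, from 0.41 for ASG7 upwards to MFA1, with a median of 0.94. The median was 0.43 in the T73 pair, with 6 of the 7 above 0. In the pair of labelled deletions it was 0.19, with 4 of the 7 above 0. MFA1 differed by more in the T73 pair (1.26) and in the deletion pair (1.17) than in the CLIB215 pair. AGA2 was at 0.44 in the T73 pair and −1.06 in the deletion pair. AGA2, an agglutinin subunit gene, was at 0.99, the a-factor exporter gene STE6 at 0.95, the protease gene BAR1 at 0.92 and the receptor gene STE2 at 0.89. STE12, the transcription factor of the pheromone response, was at 1.03, and of 26 genes of that response 19 were above 0 (median 0.26).

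The same contrast between loci was then read for the other edits, which share no column with this pair. For labelled deletions (the column titled as the RXT3 deletion minus that titled as the PHO23 deletion), the differences of all 4956 ORFs correlated with those of the CLIB215 pair with a Pearson r of 0.504, or −0.0022 where columns take their names from the genotype field. For the T73 alleles r was −0.084. These are descriptions across ORFs, which are not independent replicates, and the columns share the series' processing. Of the 219 ORFs higher in the CLIB215 pair, 65 were also higher by at least 1 unit in the deletion pair (29.7%, against 4.28% of all ORFs) and 1 was lower. Of the 225 lower ORFs, 78 were also lower in the deletion pair (34.7%, against 4.74% of all ORFs). In the T73 pair, 9 of the 219 were higher and 9 lower, and of the 225 lower ORFs 6 were lower and 14 higher, where 2.04% of all ORFs were higher and 1.01% lower.

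**Figure D4:**
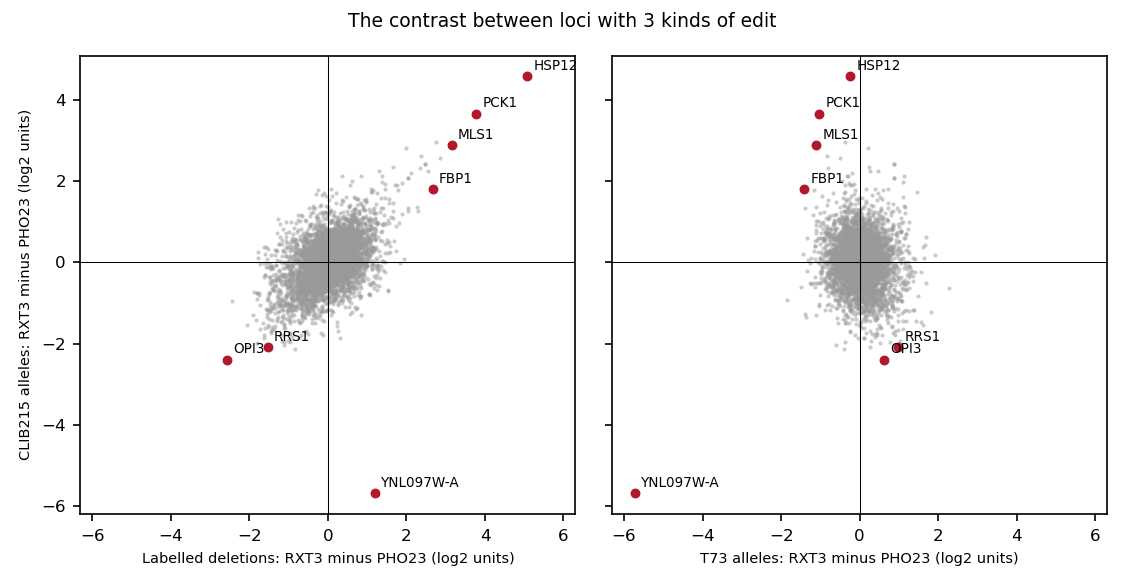
Difference between the CLIB215 columns (RXT3 minus PHO23, vertical axis, log2 units) against the same difference between the labelled deletions (left) and the T73 alleles (right), 1 point per complete ORF (n = 4956). HSP12, PCK1, MLS1 and FBP1 lie at the upper right on the left panel and left of the zero line on the right panel, and YNL097W-A lies at the bottom of both.

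Gene by gene the likeness to the deletion pair held for the leading groups. HSP12 differed by 5.07 in the deletion pair and by −0.24 in the T73 pair, PCK1 by 3.78 in the deletion pair and −1.03 in the T73 pair, and OPI3 by −2.57 in the deletion pair and 0.62 in the T73 pair. The gluconeogenesis list had a median of 1.00 in the deletion pair and −0.69 in the T73 pair. The assembly lists had medians of −0.75 and −0.66 in the deletion pair, against 0.30 and 0.37 in the T73 pair. Some genes past 1 unit in the CLIB215 pair had no counterpart in either. SAY1, a sterol deacetylase gene, was at −1.85 in the CLIB215 pair, 0.30 in the deletion pair and −0.04 in the T73 pair. PGS1 and UBX6, a ubiquitin-regulatory domain gene, were at 1.69 and 1.63 in the CLIB215 pair, −0.31 and −0.05 in the deletion pair and −0.15 and −0.22 in the T73 pair. In all 3 the CLIB215PHO23 column lay beyond the others, and for SAY1 CLIB215RXT3 was also the lowest column, at −0.40.

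The genes for which CLIB215RXT3 lay farthest from the other columns were different ones. Farthest above the other columns was SGE1, at 0.59 in CLIB215RXT3 and −0.37 in CLIB215PHO23, followed by RLF2, PRP24 and HAT1. PRP24 was at 0.76 in CLIB215RXT3 and 0.0031 in CLIB215PHO23. HAT1, the catalytic subunit gene of a histone acetyltransferase that acts on new histones, was at 0.86 in CLIB215RXT3 cells and −0.37 in CLIB215PHO23 cells, with the 4 remaining columns between −0.79 and 0.10. RLF2, a subunit gene of the chromatin assembly factor CAF-1, was at 0.85 in CLIB215RXT3 and −0.02 in CLIB215PHO23. Farthest below were KTR5, a mannosyltransferase gene, at −1.02, and MKK1, a kinase gene of the cell integrity pathway, at −1.18, against 0.44 and 0.32 in CLIB215PHO23. NSE1, a gene of the Smc5-Smc6 complex of DNA repair, had a difference of −2.13, with −1.03 in CLIB215RXT3 and 1.10 in CLIB215PHO23, the lowest and the highest of its 6 values.

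The largest difference of all was that of an ORF with no gene name. YNL097W-A, whose systematic name carries the number of PHO23 (YNL097C) on the opposite strand and which the annotation used here lacks, was at −1.51 in CLIB215RXT3 cells and 4.16 in CLIB215PHO23 cells, a difference of −5.68. It was at 4.61 with the T73 allele of PHO23, but at −2.97 in the column titled as the PHO23 deletion, −1.77 in the one titled as the RXT3 deletion and −1.11 with the T73 allele of RXT3. It was thus high in the 2 columns with an exchanged PHO23 allele and low in the other 4. Whether the counting used strand is not given in the sources used here.

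A stretch of chromosome IV beside RXT3 had higher values in the CLIB215RXT3 column than in the CLIB215PHO23 column. The rule used the T73 and deletion pairs alone (running median of their mean over 9 ORFs of at least 0.5 in size, held for at least 9 ORFs). By this rule it was the only such stretch in the genome. It runs from RPL31A to SIT4 (322226 to 370706, build R64), starts next to RXT3 and holds 25 complete ORFs over 48.5 kb. In the CLIB215 pair, 21 of the 25 were above 0 and 11 were higher by at least 1 unit. The median was 0.94, against 0.10 in the 9 ORFs before the stretch and 0.21 in the 9 after. The CLIB215 values did not enter the rule, but the stretch was named after its values were seen. The column medians over the 25 ORFs were 0.61 in CLIB215RXT3, 0.58 with the T73 allele of RXT3 and 0.66 in the column titled as the RXT3 deletion, against −0.33 in CLIB215PHO23, −0.25 with the T73 allele of PHO23 and −0.35 in the column titled as the PHO23 deletion. The T73 and deletion columns chose the stretch, so their values are a description.

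The stretch holds genes of many functions. The largest differences were those of RAD59 (1.72), of recombination repair, SLC1 (1.62), an acyltransferase of phospholipid synthesis, IDP1 (1.57), the mitochondrial isocitrate dehydrogenase of the NADP type, and PSA1 (1.45), which makes GDP-mannose for the cell wall. COX9, at 1.34, is both here and in the respiratory list, SLC1 is also in the phospholipid list, and RPS29B, a ribosomal protein gene at 0.76, is here against the sign of its list. The 4 ORFs below 0 were SYO1 (−0.68), a gene of 5S particle import, TSR1 (−0.63), of 40S assembly, LHP1 (−0.24), the yeast La protein gene, and RPL31A (−0.12), a ribosomal protein gene. Beside PHO23 on chromosome XIV the 3 complete neighbours on each side differed by −0.13 to 0.76. RPS7B, at −0.13, and NST1, at 0.76, were the extremes.

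**Figure D5:**
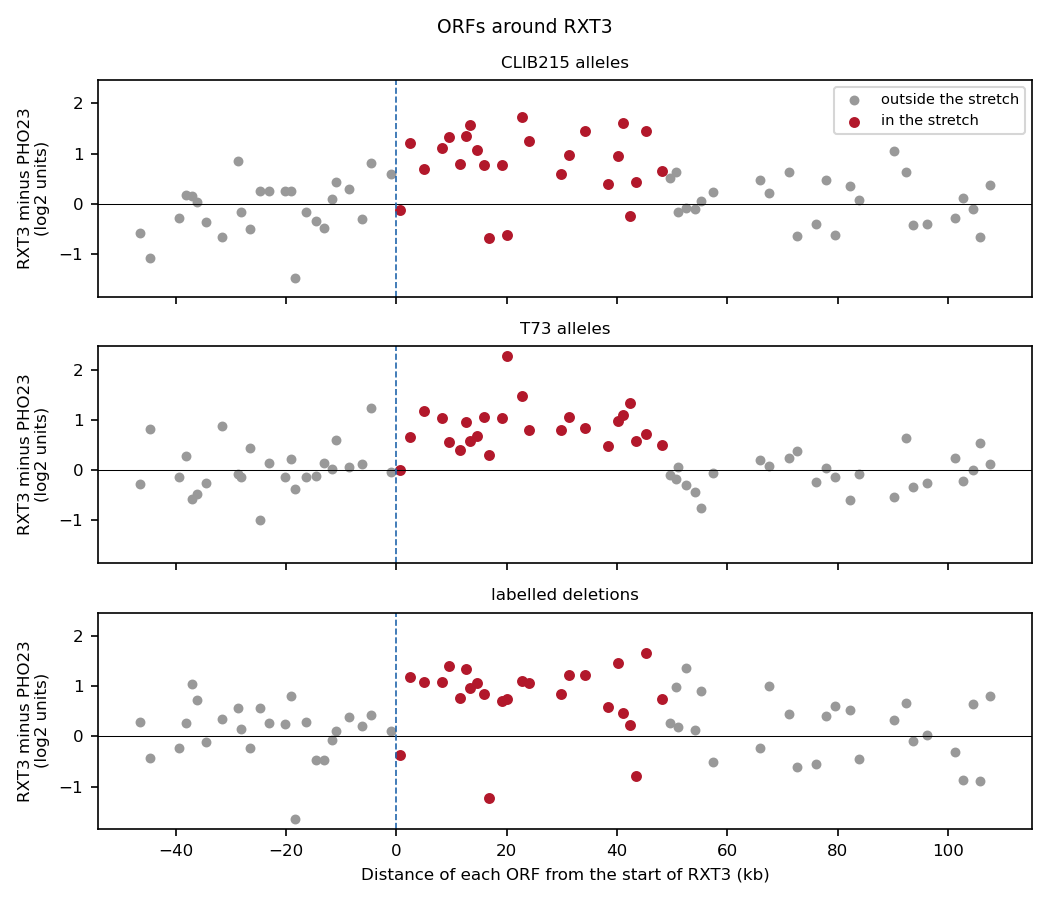
Difference between RXT3 and PHO23 columns (log2 units, vertical axes) for the CLIB215 alleles, the T73 alleles and the labelled deletions, by distance of each ORF from the start of RXT3 (kb, horizontal axis). Red points are the 25 ORFs of the stretch, chosen on the T73 and deletion values and mostly above 0 in the CLIB215 panel, and grey points are its neighbours.

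Over whole chromosomes the differences were close to each other. Chromosome medians ran from −0.07 for chromosome XIV to 0.13 for chromosome I. Within 20 kb of a chromosome end, 7 of 61 ORFs were higher by at least 1 unit (11.5%) and 5 were lower (8.20%), against 4.36% and 4.50% of the ORFs farther in. The 7 include FDC1, a decarboxylase gene at 2.26, and COS3 at 1.81. Of the ORFs left out for a missing value, 219 had one in CLIB215RXT3 and not in CLIB215PHO23, and 121 had one in CLIB215PHO23 and not in CLIB215RXT3.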

How the data were processed

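Per the labels' protocols, RNA of log-phase cells was fragmented, enriched on poly-dT beads and reverse transcribed with primers that hold a barcode and a UMI. The submitters' processing notes list Bowtie, with no version, and build R64; nothing used here states the counting, its strand or the normalization. The authors deposited 1 table of centred log values, with 1 column per group of 3 libraries. Neither base nor centring is written in it, and reading the deposited values as log2 is a choice made here. Depth per library is unknown, and values are not changes against unmodified BY4741. Of 6701 rows, 51 without an ORF name were left out.

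Differences were taken between columns for ORFs with a value in all 6 of them, with Python 3.11.15 and pandas 2.3.3, and the scripts were tested on simulated data. Gene names and positions came from the R64 annotation, which holds 4858 of the 4956 complete ORFs, and promoters were read from its genome sequence (RefSeq). The members, the 48 gene lists and the size of 1 unit were chosen with earlier results of these data known, and a few list members were corrected after values were seen. Genes were named as the 15 farthest from 0 on each side, at most 5 per list, the Rpd3L subunits, neighbours of both loci and those farthest from the other columns. YNL097W-A, the chromosome IV stretch and some further list members were named after their values were seen. Alternatives were another naming, size, scaling, ORF filter and promoter window.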

Additional observations from a re-analysis of the deposited data

Results flagged for a closer look

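Among the genes named by rule, 6 differed by at least 1 unit in opposite directions with the CLIB215 alleles and with the T73 alleles (RXT3 minus PHO23 in both). The opposition itself was not tested, because each group has 1 pooled column. Among the carbon genes, PCK1 was at 3.66 in the CLIB215 pair and −1.03 in the T73 pair, MLS1 at 2.89 in the CLIB215 pair and −1.10 in the T73 pair, and FBP1 at 1.80 in the CLIB215 pair and −1.41 in the T73 pair. Among the rest, BMT5 was at −1.94 in the CLIB215 pair and 1.04 in the T73 pair, the 60S factor gene NSA2 at −1.65 in the CLIB215 pair and 1.10 in the T73 pair, and MET30, of the ubiquitin ligase that restrains sulfur assimilation, at −1.45 in the CLIB215 pair and 1.11 in the T73 pair. Of the 219 ORFs higher with the CLIB215 alleles, 9 were lower with the T73 alleles (4.11%, against 1.01% of all 4956 ORFs). Of the 225 ORFs lower with the CLIB215 alleles, 14 were higher with the T73 alleles (6.22%, against 2.04% of all 4956 ORFs).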

How the results depend on the processing

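Most results depend on the naming of the columns. By the genotype field the column titled as the PHO23 deletion would hold the CLIB215 allele of RXT3. PHO23 had no value in that column, which goes with its title. Over the chromosome IV stretch that column had a median of −0.35, near the other columns titled for PHO23 (−0.25 and −0.33). Columns titled for RXT3 ran there from 0.58 to 0.66. The stretch was chosen partly on that column, and the naming was not tested. With the genotype field in place of the titles, the ORFs past 1 unit were 97 on the higher and 62 on the lower side, and the Pearson r with the deletion pair was −0.0022. List medians then were 0.10 for small-subunit assembly, 0.032 for 60S assembly, 0.0037 for gluconeogenesis, 0.36 for the a-specific genes, −0.039 for 60S and −0.077 for 40S ribosomal proteins, −0.12 for histones, −0.021 for hexose transporters, −0.13 for the Snf1 pathway, 0.12 for phospholipids and −0.0064 for mitochondrial ribosomal proteins. Those of the Msn2 and Msn4 genes (0.083), trehalose and glycogen (0.084), tRNA modification (−0.011) and Ume6 targets (−0.058) kept their sign at much smaller sizes, and in all 16 of 43 list medians changed sign. Of 90 genes compared that had a difference of at least 1 unit, 7 stayed past it, 64 kept their sign below it and 19 changed sign. The sign also changed for 15 of the 34 compared with smaller differences. SGE1 and PRP24 were not among the genes compared. The 19 were HSP12 (−0.25), MOH1 (0.015), PGM1 (0.31), FBP1 (−0.54), NDE2 (0.29), NQM1 (−0.20), ENP2 (0.24), OPI3 (0.090), UME6 (0.79), SCW11 (−0.25), FIT2 (−0.13), BNA1 (−0.70), GCV1 (−0.27), CUP1-1 and CUP1-2 (−0.27 each), FDC1 (−0.19), SAM2 (0.22), LYS20 (0.020) and ADE2 (−0.40).

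A size of 1.5 units gave 56 higher and 43 lower ORFs, and 0.7 units gave 531 higher and 506 lower. Within 10 kb of a chromosome end 20% of ORFs were higher and within 40 kb 6.87%. Under the other alternatives (ORFs with a symbol, ORFs with values in both CLIB215 columns, columns centred or also scaled to 1 SD, a shorter promoter window, and leaving out the chromosome IV stretch, the last chosen after seeing the data) no gene compared changed sign, and of the list medians only those of the phosphate regulon, the cell cycle and one-carbon genes did, all close to 0. Centring took NTH2 (0.97), INH1 (0.986) and STE12 (0.99) below 1 unit, and scaling took 9 of the 90 below it and RLF2 past it (1.0008). No paired analysis was possible because the pooled columns carry no replicate numbers, and for the same reason no replicate could be left out. Without depth or replicates, a single gene's difference has no error.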
